A study of Mus musculus with 6 samples.

Results

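The genes described here carry the autonomic control of the heartbeat at the cell surface and just beneath it: the muscarinic receptor gene *Chrm2*, the adrenergic receptor genes *Adrb1*, *Adra1a* and *Adra1b*, the orphan receptor gene *Gpr22*, the G protein subunit genes *Gnb3* and *Gnas*, and the adenylyl cyclase genes *Adcy5* and *Adcy6*. They are 9 of the 16448 genes listed for these samples and were picked by their symbols and known roles, with the difference between the groups already known, so their fold changes are given as a description without a test. RNA-seq was carried out on total RNA of CMs from 3 CtrlCre and 3 Cpt1bcKO samples of C57BL/6 mice aged 8 to 12 weeks. Cpt1bcKO mice carried αMHC-Cre pos/+ and the homozygous floxed allele *Cpt1b* fl/fl, and CtrlCre mice carried αMHC-Cre pos/+ with the wild-type alleles *Cpt1b* +/+, so that both groups expressed Cre in CMs. The αMHC promoter is active in CMs, and the study places the loss of *Cpt1b*, the enzyme that admits long-chain fatty acids to mitochondria, before birth. CMs were obtained from the ventricles after enzymatic perfusion of the heart and removal of the atria, and no sorting step is described.

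Acetylcholine released by the vagus nerve binds the M2 receptor encoded by *Chrm2*, which couples to inhibitory G proteins. Their α subunit restrains adenylyl cyclase and their βγ dimer opens the potassium channel formed by *Kcnj3* and *Kcnj5*. Noradrenaline acts in the opposite direction through the β1 receptor encoded by *Adrb1*, which couples to the stimulatory α subunit made from *Gnas*. This subunit activates the cardiac adenylyl cyclases encoded by *Adcy5* and *Adcy6*, and the cAMP they produce activates protein kinase A. The α1 receptors encoded by *Adra1a* and *Adra1b* couple to the Gq class and are known for their part in CM growth and survival. *Gpr22* is an orphan receptor with marked expression in heart and brain, and *Gnb3* encodes a Gβ subunit best known from cone photoreceptors.

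Promoter sequences of 3 receptor genes are shown because these genes span the range of differences among the receptors, from *Gpr22* and *Chrm2* with the largest to *Adrb1* with the smallest. The sequences were taken from RefSeq (GRCm38.p6) and are written 5′ to 3′ on the strand of the gene, ending upstream of the transcribed part. *Chrm2* lies at chr6:36387834-36388083 on the plus strand, *Gpr22* at chr12:31713948-31714133 on the minus strand and *Adrb1* at chr19:56721867-56722116 on the plus strand. For *Gpr22*, the 64 bases next to the RefSeq start were left out because they lie inside the gene as listed in the deposited table. Capitals mark matches to the short motifs named in the text that follows.
Chrm2: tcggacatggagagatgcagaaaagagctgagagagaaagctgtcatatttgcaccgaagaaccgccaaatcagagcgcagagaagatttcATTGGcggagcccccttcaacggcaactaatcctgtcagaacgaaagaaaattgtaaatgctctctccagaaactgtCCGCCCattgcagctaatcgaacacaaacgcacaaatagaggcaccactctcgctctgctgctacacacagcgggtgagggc
Gpr22: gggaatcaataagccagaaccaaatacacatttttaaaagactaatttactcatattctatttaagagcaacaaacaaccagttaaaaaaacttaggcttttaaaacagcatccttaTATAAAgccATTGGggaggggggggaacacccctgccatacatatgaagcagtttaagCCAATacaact
Adrb1: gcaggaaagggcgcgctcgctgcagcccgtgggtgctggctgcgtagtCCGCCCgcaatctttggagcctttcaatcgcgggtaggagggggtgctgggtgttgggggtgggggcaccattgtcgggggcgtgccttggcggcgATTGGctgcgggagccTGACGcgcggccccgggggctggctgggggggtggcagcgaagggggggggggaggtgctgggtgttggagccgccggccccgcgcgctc

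The 3 windows differed in base composition. Of the 250 bases before the RefSeq start, 50% were G or C in *Chrm2*, 39.6% in *Gpr22* and 74.0% in *Adrb1*, compared with a median of 52.4% over 32851 promoters. CpG dinucleotides numbered 12 in *Chrm2*, 1 in *Gpr22* and 24 in *Adrb1*, with a median of 6 over all promoters. Motifs were searched on both strands in the window from 250 bases before to 50 bases after the start. The CCAAT box (CCAAT) was found in all 3 genes, as in 37.4% of all promoters. The GC box (GGGCGG) was found in *Chrm2* and *Adrb1*, as in 35.7% of all promoters. The TATA box (TATAAA), present in 13.6% of promoters, was found in *Gpr22*, where it starts 133 bases before the RefSeq start. The core of the cAMP response element (TGACG), which is part of the full element TGACGTCA, was found in *Adrb1*, 90 bases before the start, and in 20.8% of all promoters. The full element (1.79% of promoters), the nuclear receptor site AAGGTCA (4.72%), the hypoxia response core ACGTG (19.6%), the MEF2 motif (CTA and TAG separated by any 4 bases, 3.69%) and the GATA motif AGATAA (11.2%) had no match in these 3 windows. Among the other members, *Gnas*, *Adra1b* and *Adcy5* had RefSeq promoter entries, 10 entries in 6 members in all. *Gnb3*, *Adra1a* and *Adcy6* had none.

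The deposited values, called normalized counts here, are read counts per gene after the authors' scaling of every library by its own size factor and rounding. They summed to between 13393411 and 31722217 per sample, and to between 3146414 and 3551692 without mitochondrial-encoded and rRNA genes. The mitochondrial rRNA gene *mt-Rnr2* held 63.2% to 64.6% of the sum in CtrlCre samples and 61.8%, 72.6% and 80.8% in Cpt1bcKO samples 1, 2 and 3. Cpt1bcKO samples 2 and 3 thus lay above all CtrlCre samples, sample 3 by the wider margin. The worth of a single read was estimated from the spacing of the low values. It was 0.92 normalized counts in CtrlCre sample 3, 0.68 in Cpt1bcKO sample 1 and 1.29 in Cpt1bcKO sample 3, and was not resolved in the others. *Cpt1b* itself had 1861, 893 and 1443 normalized counts in CtrlCre and 211, 353 and 285 in Cpt1bcKO samples (log2 fold change −2.27, standard error 0.267, adjusted P = 0.00338, limma with Benjamini–Hochberg adjustment), in the direction of the labels. Values were compared as log2(value + 1) in 11364 genes with at least 10 in at least 3 samples, and fold changes on this scale understate changes of low genes. Each sample is a mouse, so the test sets the difference between groups against the spread between mice. The variance of each gene is also drawn towards a trend over all genes tested.

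All 9 genes reached at least 10 normalized counts in every sample. The receptors were lower in Cpt1bcKO CMs than in CtrlCre CMs, by the widest margin for *Gpr22* and *Chrm2*, and *Gnb3* was several times higher. *Gnas* and the cyclases differed little by comparison with *Gpr22*, *Chrm2* and *Gnb3*. The receptor gene *Adrb1* (log2 fold change −0.48) differed about as much as *Adcy5* (−0.47) and *Adcy6* (−0.38). Of the 9 genes, 1 was higher and 8 were lower by log2 fold change, and the groups did not overlap in 7 (1 higher, 6 lower). Among all genes tested, 18.7% had groups that did not overlap (9.13% higher, 9.60% lower), and nothing is read from the count of members because they were chosen with this contrast known.

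**Figure D1:**
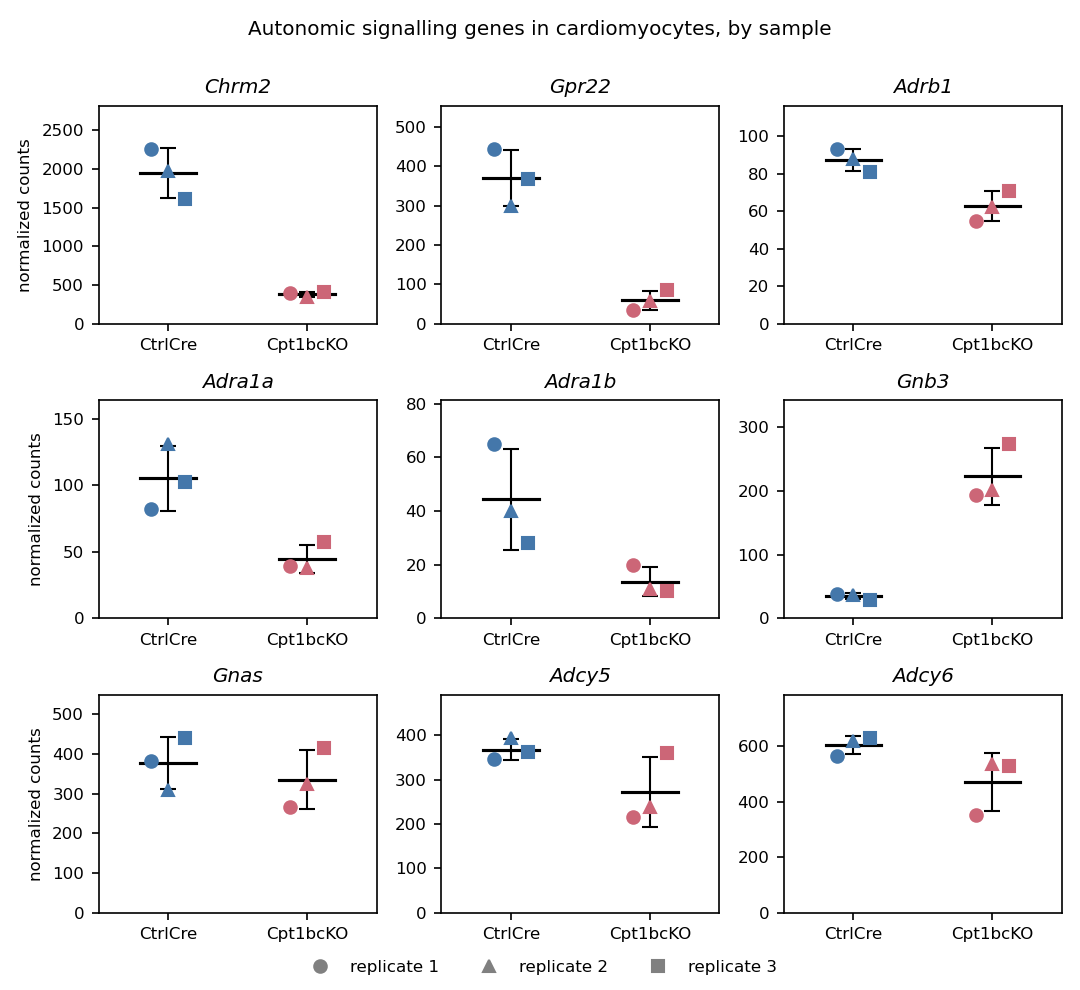
Normalized counts (vertical axes, each starting at 0) of the 9 genes in the 3 CtrlCre (blue) and 3 Cpt1bcKO (red) samples. Points are samples with a symbol for the replicate number, thick bars are means and whiskers are 1 SD. The groups are apart in 7 panels and overlap for *Gnas* and *Adcy5*.

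*Chrm2* (ENSMUSG00000045613, chr6:36388084-36528414, plus strand, GRCm38) encodes the M2 receptor that slows the heart. It had 2252, 1971 and 1615 normalized counts in CtrlCre samples 1, 2 and 3 and 393, 343 and 408 in Cpt1bcKO samples 1, 2 and 3. Every Cpt1bcKO sample was far under every CtrlCre sample, and the 3 Cpt1bcKO values lay close together. The means were 1946 ± 319 and 381 ± 34.0 (SD, n = 3 each), so that Cpt1bcKO CMs held 19.6% of the control level. The log2 fold change was −2.34 (standard error 0.159). It ranged from −2.47 to −2.23 when each sample was left out in turn and was −2.39 without Cpt1bcKO sample 3. The genes of the other muscarinic receptors, *Chrm1*, *Chrm3*, *Chrm4* and *Chrm5*, had no values among the genes listed for these samples and could not be compared.

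*Chrm2* overlaps the long noncoding RNA gene *9330158H04Rik* on the opposite strand. That gene had 33, 35 and 13 normalized counts in CtrlCre and 15, 15 and 12 in Cpt1bcKO samples (log2 fold change −0.79, adjusted P = 0.439, limma), and −1.23 without CtrlCre sample 3. *Chrm2* also contains *Mir490* on its own strand, which was not analysed here. Reads that overlap several genes were excluded by the authors, the library kit keeps strand, and the strand setting of the counting is not given in the sources used here. The nearest listed gene on the side of lower coordinates is *Mtpn*, 848 kb away, with 141, 206 and 180 normalized counts in CtrlCre and 235, 259 and 188 in Cpt1bcKO samples (log2 fold change 0.37, or 0.23 without CtrlCre sample 1, adjusted P = 0.433). *Ptn*, 187 kb away on the other side, had 0 to 9 normalized counts and did not reach the minimum.

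*Gpr22* (ENSMUSG00000044067, chr12:31706867-31713947, minus strand) had 443, 299 and 368 normalized counts in CtrlCre and 35, 57 and 85 in Cpt1bcKO samples. All Cpt1bcKO samples were under the lowest CtrlCre sample, and they varied more in proportion than for *Chrm2*. The means were 370 ± 72.0 and 59.0 ± 25.1, which leaves 15.9% of the control level. The log2 fold change of −2.70 (standard error 0.294) was the lowest of the 9 genes. It ranged from −3.00 (without Cpt1bcKO sample 3) to −2.37 (without Cpt1bcKO sample 1). *Gpr22* lies within the span of *Cog5*, a Golgi trafficking gene on the opposite strand, so reads of the pair could be lost or shared depending on the strand setting. *Cog5* had 203, 220 and 215 normalized counts in CtrlCre and 192, 124 and 148 in Cpt1bcKO samples (log2 fold change −0.48, standard error 0.190, adjusted P = 0.286). The neighbouring tRNA modification gene *Dus4l*, 52.0 kb away, had 50, 29 and 42 against 38, 20 and 13 normalized counts (log2 fold change −0.84, or −0.50 without Cpt1bcKO sample 3, adjusted P = 0.382), and the pseudogene *AC125020.3*, 34.1 kb away on the other side, had 0 to 6.

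*Adrb1* (ENSMUSG00000035283, chr19:56722372-56724862, plus strand) encodes the β1 receptor, the main receptor through which noradrenaline drives rate and force. It had 93, 88 and 81 normalized counts in CtrlCre and 55, 62 and 71 in Cpt1bcKO samples. The groups did not overlap, and CtrlCre sample 3 and Cpt1bcKO sample 3 were the nearest to each other. The means were 87.3 ± 6.03 and 62.7 ± 8.02 and the difference was −0.48 on the log2 scale (standard error 0.201), with 71.8% of the control level in Cpt1bcKO CMs. The difference was thus the smallest among the 5 receptors. Leaving out each sample in turn gave −0.57 to −0.39.

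The 2 α1 receptor genes lay between *Adrb1* and the pair of *Chrm2* and *Gpr22*. *Adra1a* (ENSMUSG00000045875, chr14:66635251-66771168, plus strand) had 82, 131 and 102 normalized counts in CtrlCre and 39, 38 and 57 in Cpt1bcKO samples. Its groups were apart, with a log2 fold change of −1.21 (standard error 0.254) and 42.5% of the control level. *Adra1b* (ENSMUSG00000050541, chr11:43774606-43901210, minus strand) had 65, 40 and 28 normalized counts in CtrlCre and 20, 11 and 10 in Cpt1bcKO samples. The values were low and the CtrlCre samples spread widely, yet the lowest of them exceeded the highest Cpt1bcKO sample. On the log2 scale the difference was −1.61 (standard error 0.398), with 30.8% of the control level, and ranged from −1.90 to −1.30 when each sample was left out. At the level of 10 to 11 normalized counts in Cpt1bcKO samples 2 and 3, the value rests on few reads.

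*Gnb3* (ENSMUSG00000023439, chr6:124834240-124840275, minus strand) encodes the Gβ3 subunit, which forms a dimer with a Gγ subunit and signals beside the α subunit. It had 38, 37 and 29 normalized counts in CtrlCre and 193, 202 and 274 in Cpt1bcKO samples. The CtrlCre values were low and close together, and every Cpt1bcKO value was several times above them. The means were 34.7 ± 4.93 and 223 ± 44.4, or 643% of the control level, and the log2 fold change was 2.64 (standard error 0.217). Leaving out each sample in turn gave 2.49 to 2.74, with 2.49 without Cpt1bcKO sample 3. No annotated gene overlaps *Gnb3*. Its close neighbours had few counts: the cell cycle gene *Cdca3*, 539 bases away, had 2, 1 and 0 in CtrlCre and 3, 6 and 1 in Cpt1bcKO samples, and the collagen-modifying enzyme gene *P3h3*, 814 bases away, had 11, 7 and 9 against 7, 9 and 13. Neither reached the minimum for the test.

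*Gnas* (ENSMUSG00000027523, chr2:174284320-174346744, plus strand), the source of the stimulatory Gα subunit, had 383, 310 and 439 normalized counts in CtrlCre and 266, 324 and 414 in Cpt1bcKO samples. The groups overlapped, and the log2 fold change of −0.18 (standard error 0.199) was smaller than its standard error. It ranged from −0.35 (without Cpt1bcKO sample 3) to −0.03 (without Cpt1bcKO sample 1), with −0.32 and −0.07 without CtrlCre samples 2 and 3, and was −0.07 when scaled to the total without mitochondrial and rRNA genes. The locus is imprinted and produces several transcripts from separate start sites, and the deposited value is their sum. Overlapping genes at the locus, among them the antisense gene *Nespas*, were not analysed here.

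*Adcy5* (ENSMUSG00000022840, chr16:35154877-35305737, plus strand) had 346, 393 and 363 normalized counts in CtrlCre and 216, 239 and 361 in Cpt1bcKO samples. Cpt1bcKO samples 1 and 2 were under all CtrlCre samples, whereas sample 3 was within their range. Its log2 fold change of −0.47 (standard error 0.199) became −0.69 without Cpt1bcKO sample 3 and −0.32 without Cpt1bcKO sample 1. *Adcy6* (ENSMUSG00000022994, chr15:98589994-98607633, minus strand) had 566, 620 and 629 normalized counts in CtrlCre and 351, 536 and 529 in Cpt1bcKO samples. The groups were apart, with Cpt1bcKO sample 1 well under the other two. Its log2 fold change of −0.38 (standard error 0.182) became −0.18 without Cpt1bcKO sample 1. These are the cyclases that the heart is known to rely on, and both are inhibited by calcium.

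The differences were also set side by side for samples with the same replicate number. For *Chrm2* they were −2.52, −2.52 and −1.98 on the log2 scale for numbers 1, 2 and 3, and for *Gnb3* they were 2.31, 2.42 and 3.20. For *Gpr22* they were −3.62, −2.37 and −2.10. *Adra1a* and *Adra1b* lay between −1.77 and −0.83 in all 3 numbers. The sign was the same in all 3 numbers for each of the genes except *Gnas* (−0.52, 0.06 and −0.08), and *Adcy5* was at −0.01 for number 3.

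Levels of different genes were compared per kilobase of exon (union of the exons of GENCODE vM21). The start and end in this annotation matched those of the deposited table for 6 of the 9 genes. In CtrlCre CMs, *Chrm2* stood far above the others at 321 normalized counts per kb (267 to 372 over the samples). *Adcy6* with 89.2 (83.5 to 92.7) and *Gpr22* with 80.3 (64.9 to 96.1) followed and overlapped each other. Then came *Adcy5* with 51.1, *Gnas* with 33.7 and *Adrb1* with 25.8, whose samples did not overlap. At the low end, *Gnb3* (13.2), *Adra1b* (13.1) and *Adra1a* (12.0) were within the spread of each other.

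In Cpt1bcKO CMs the order was different. *Gnb3* had the highest mean, 84.7 normalized counts per kb (73.3 to 104), and overlapped *Adcy6* at 69.6 (51.8 to 79.0), which in turn overlapped *Chrm2* at 63.0 (56.7 to 67.4). *Adcy5* (37.9) and *Gnas* (29.9) overlapped, as did *Adrb1* (18.5) and *Gpr22* (12.8, from 7.60 to 18.4). *Adra1a* (5.12) and *Adra1b* (4.04) were the lowest and overlapped. Per kilobase of the longest transcript in place of the union of exons, the CtrlCre level was 95.6 in place of 33.7 for *Gnas* and 24.5 in place of 12.0 for *Adra1a*, so their places in the order depend on the length used.

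**Figure D2:**
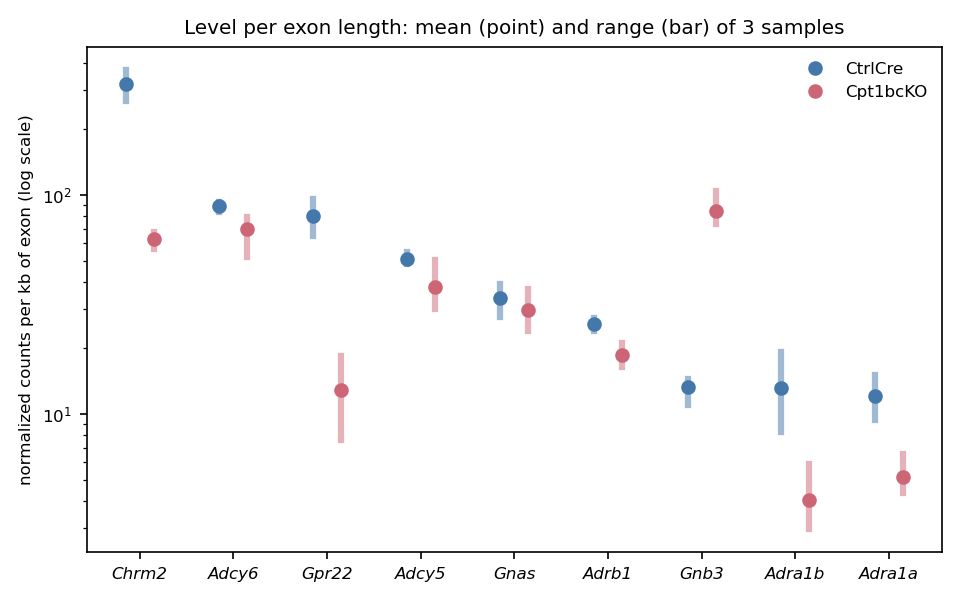
Normalized counts per kb of exon (vertical axis, log scale) of the 9 genes in CtrlCre (blue) and Cpt1bcKO (red) CMs, ordered by the CtrlCre mean. Points are means and bars the range of 3 samples. *Chrm2* has the highest level in CtrlCre CMs (321) and *Gnb3* in Cpt1bcKO CMs (84.7).

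Each gene was then read against the other members of its family in the same sample, as a share of the family sum per kb, which does not depend on the scaling of the samples. *Gnb3* made up 8.11%, 7.72% and 6.00% of the Gβ sum in CtrlCre samples and 30.1%, 33.5% and 39.3% in Cpt1bcKO samples. *Gnb1*, the most abundant Gβ gene, went from 63.6% ± 6.19 to 43.7% ± 2.97 (SD, n = 3). Its own level was 430, 513 and 535 normalized counts in CtrlCre and 484, 429 and 459 in Cpt1bcKO samples (log2 fold change −0.10, or 0.01 when scaled to the total without mitochondrial and rRNA genes, adjusted P = 0.804, limma), and leaving out each sample gave −0.20 to −0.04. The family sum was 181 ± 2.91 and 246 ± 17.9 normalized counts per kb. None of the other 4 Gβ genes had an unadjusted P value below 0.05.

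Shares of the cyclases were close in the 2 groups. *Adcy6* made up 46.3% ± 0.502 of the adenylyl cyclase sum in CtrlCre and 45.4% ± 4.23 in Cpt1bcKO samples, and *Adcy5* 26.6% ± 1.02 and 24.6% ± 3.22. The next cyclase, *Adcy9*, held 20.0% and 18.7%. The sum was 193 ± 9.50 and 153 ± 31.4 normalized counts per kb. *Gnas* held 7.84% ± 1.31 and 6.83% ± 1.76 of the Gα sum, which was led by *Gnai2* (33.2% and 28.2%) and *Gna12* (30.6% and 35.9%). With the longest transcript as length, *Gnas* held 15.6% and 14.1%, *Gnai2* 39.8% and 35.2%, and *Gna12* 21.5% and 26.3%, so the *Gnas* share and the order of *Gnai2* and *Gna12* in Cpt1bcKO samples depend on the length used. *Gna12* was higher by 0.27 on the log2 scale, which did not pass the test (adjusted P = 0.440).

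Among the α1 receptors, *Adra1a* held 42.3% ± 11.2 in CtrlCre and 30.3% ± 1.49 in Cpt1bcKO samples and *Adra1b* 44.5% ± 14.3 and 25.1% ± 12.0. With the longest transcript as length, *Adra1a* held 59.0% and 46.8% and *Adra1b* 31.9% and 19.4%, so which α1 gene leads depends on the length used. The remainder was *Adra1d*, the α1 receptor of vascular smooth muscle, with 6, 5 and 10 normalized counts in CtrlCre and 10, 12 and 22 in Cpt1bcKO samples (log2 fold change 0.94, adjusted P = 0.433). Its share was 8.93% to 20.9% in CtrlCre and 33.7% to 55.0% in Cpt1bcKO samples, or 9.14% and 33.8% on average with the longest transcript, on a family sum per kb of exon of 28.8 ± 3.32 and 16.9 ± 3.73 normalized counts. Within the 5 receptors described here, *Chrm2* held 70.9% ± 2.57 and 61.0% ± 3.95 of the sum per kb, *Gpr22* 17.8% ± 2.94 and 12.2% ± 4.16, and *Adrb1* 5.75% ± 0.456 and 17.9% ± 1.46. The sum of the 5 was 453 ± 67.3 in CtrlCre and 103 ± 11.3 in Cpt1bcKO CMs.

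**Figure D3:**
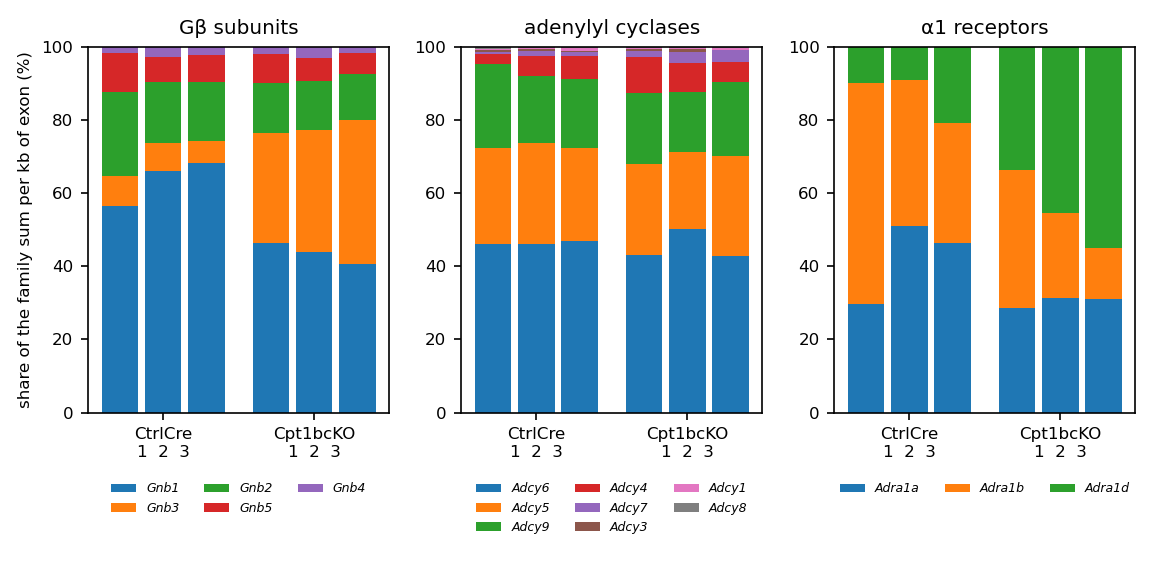
Share of each gene in the family sum of normalized counts per kb of exon (vertical axes, percent), with 1 bar for each sample, for Gβ subunits, adenylyl cyclases and α1 receptors. The *Gnb3* segment covers 6.00% to 8.11% of the CtrlCre bars and 30.1% to 39.3% of the Cpt1bcKO bars, while mean shares of *Adcy6* are 46.3% and 45.4%.

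CMs isolated without sorting can hold RNA of other cells, and fewer cells of a type and less RNA per cell cannot be told apart in these bulk samples. All 10 ventricular CM markers were tested, 9 of them lower by log2 fold change, 2 with an unadjusted P value below 0.05 and 0 after adjustment, and they summed to 527168 to 622732 normalized counts in CtrlCre and 343608 to 563159 in Cpt1bcKO samples. *Ttn* held the largest part of these sums, with 229054, 395949 and 364082 normalized counts in CtrlCre and 151007, 340512 and 360030 in Cpt1bcKO samples. The median log2 fold change of the 10 markers was −0.38. For fibroblasts, 7 of 8 markers were tested, all 7 were higher with an unadjusted P value below 0.05 and 2 passed after adjustment (*Col1a1* and *Lum*), and their sum was 498 to 785 in CtrlCre and 1108 to 1338 in Cpt1bcKO samples. Both calls were lost without CtrlCre sample 3 (0.0519 and 0.0622) and without Cpt1bcKO sample 2 (0.0813 and 0.0691), and that of *Lum* also without CtrlCre sample 2 (0.0610). All 8 endothelial markers were higher by log2 fold change (median 0.34), 1 of them with an unadjusted P value below 0.05 and 0 after adjustment, and they summed to 1241 to 2620 and 2308 to 2639. Smooth muscle and pericyte markers summed to 3907 to 5066 and 2879 to 3283. Of the 6 tested, 3 were higher and 3 lower by log2 fold change, with 2 lower at an unadjusted P value below 0.05 and 1 after adjustment. *Acta2*, for which alternatives are not given here, had 526, 244 and 391 against 230, 134 and 132 (log2 fold change −1.20, adjusted P = 0.0835, limma). *Abcc9*, a potassium channel subunit gene that CMs also use, fell after adjustment (2839, 2867 and 2839 against 1579, 1597 and 1739, adjusted P = 0.0123). This call was lost without CtrlCre sample 2 (0.0632) or sample 3 (0.0686) and without Cpt1bcKO sample 2 (0.0920). Without *Abcc9*, left out after its values were seen, the sums overlapped, with 1068, 1725 and 2227 in CtrlCre and 1704, 1505 and 1140 in Cpt1bcKO samples. Immune markers summed to 83 to 129 and 109 to 122.

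Atrial CMs and pacemaker cells are known for high *Chrm2*. Of 8 atrial markers, 6 had values, with sums of 380 to 543 in CtrlCre and 660 to 895 in Cpt1bcKO samples. *Nppa*, which ventricular CMs also make under load, had 177, 93 and 144 against 683, 452 and 384 normalized counts, while the atrial light chain gene *Myl7* was near 0, with 2 to 19 normalized counts in CtrlCre and 7 to 10 in Cpt1bcKO samples. Without *Nppa*, also left out after its values were seen, the atrial sums were 282, 287 and 399 in CtrlCre and 212, 236 and 276 in Cpt1bcKO samples. Without *Tbx5* as well they overlapped, with 65, 126 and 242 against 121, 140 and 157. The transcription factor gene *Tbx5* had 217, 161 and 157 against 91, 96 and 119 (log2 fold change −0.79, adjusted P = 0.0921, or 0.0341 with sex as covariate). The atrial light chain gene *Myl4* had 16, 48 and 102 against 30, 67 and 83 (log2 fold change 0.35, adjusted P = 0.836), with −0.34 without CtrlCre sample 1 and 0.96 without CtrlCre sample 3. Pacemaker markers summed to 62 to 123 and 68 to 69. The neuron and Schwann cell markers with values summed to 20 to 36 and 14 to 38. The part of other cells in the differences of the receptors and of *Gnb3* was not tested.

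The wider pathway was read from 127 other genes in 15 roles, of which 106 had values and 84 were tested. The RGS genes *Rgs2* and *Rgs6*, the potassium channel gene *Kcnj3* and the calcium channel gene *Cacnb2* fell in Cpt1bcKO CMs, the channel genes with adjusted P values close to the threshold, while no gene of the G proteins, receptor kinases or arrestins passed the test. An unadjusted P value below 0.05 was found for 21 genes (25%), 7 higher and 14 lower, against 13.9% of all genes tested (6.66% higher, 7.22% lower). After Benjamini–Hochberg adjustment over all genes tested, 4 genes were left (4.76%), all lower, against 1.57% of all genes (0.660% higher, 0.906% lower). The median log2 fold change of the 84 genes was −0.05, and that of all genes −0.0013. The list was drawn up by role with earlier results of these data known. Leaving out a single sample moved the 4 calls to between 1 (without Cpt1bcKO sample 2) and 7 (without Cpt1bcKO sample 1), with 2 without CtrlCre sample 1 and 2 without CtrlCre sample 3.

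RGS proteins speed the shutdown of Gα subunits. Of 6 tested, 2 fell after adjustment. *Rgs2*, which acts on Gq and limits α1 receptor signals, had 265, 186 and 219 normalized counts in CtrlCre and 88, 81 and 53 in Cpt1bcKO samples (log2 fold change −1.60, standard error 0.233, adjusted P = 0.00989, limma). *Rgs6*, which acts on inhibitory G proteins and is known to limit the vagal slowing of the heart, had 93, 66 and 70 against 26, 22 and 18 (log2 fold change −1.75, standard error 0.262, adjusted P = 0.0107). Both groups were apart for each gene. With single samples left out, the adjusted P value lay between 0.00434 and 0.0486 for *Rgs2* and between 0.00735 and 0.0591 for *Rgs6*, which missed the threshold without Cpt1bcKO sample 2 (0.0591). With 1 prior variance for all genes, *Rgs2* also missed it (0.0698, in a range of 0.00127 to 0.0698 over the alternatives). The other 4 RGS genes tested had adjusted P values above 0.05, and the median of the 6 was −0.60.

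The targets at the membrane and the sarcoplasmic reticulum included 9 tested genes with a median log2 fold change of −0.80, 6 lower and 1 higher at an unadjusted P value below 0.05 and 2 lower after adjustment. *Kcnj3*, a subunit of the acetylcholine-activated potassium channel on which M2 receptors act, had 560, 642 and 587 normalized counts in CtrlCre and 149, 199 and 396 in Cpt1bcKO samples (log2 fold change −1.38, standard error 0.294, adjusted P = 0.0491). All Cpt1bcKO samples were lower than all CtrlCre samples, with Cpt1bcKO sample 3 nearest to them. Its adjusted P value was 0.114, 0.170 and 0.150 without CtrlCre samples 1, 2 and 3 and 0.237 without Cpt1bcKO sample 2. Over the 15 alternatives it ranged from 0.00302, without Cpt1bcKO sample 3, to that value, and it missed the threshold in 10. Besides those 4 fits, these were a pseudocount of 0.5 (0.0506), no filter (0.0604), a mean of at least 50 (0.0511), both other scalings (0.0587 and 0.0522) and 1 prior variance (0.178). Its partner *Kcnj5*, named here after its values were seen, had 480, 451 and 470 against 173, 205 and 364 (log2 fold change −0.99, adjusted P = 0.0848). It passed without Cpt1bcKO sample 3 (0.00745) and with sex as covariate (0.0252).

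*Cacnb2*, the β subunit of the L-type calcium channel through which protein kinase A raises calcium entry, had 545, 530 and 575 normalized counts in CtrlCre and 268, 342 and 365 in Cpt1bcKO samples (log2 fold change −0.77, standard error 0.158, adjusted P = 0.0430). The groups were apart. The call was lost in 7 of 15 alternatives, among them without CtrlCre sample 1 (0.112), sample 2 (0.128) or sample 3 (0.167) and without Cpt1bcKO sample 2 (0.155). It was also lost with no filter (0.0515), with the total without mitochondrial and rRNA genes as scale (0.0730) and with 1 prior variance (0.158), in a range of 0.00662 to 0.167 over the alternatives. The pacemaker channel gene *Hcn4*, low in working CMs, had 22, 24 and 21 against 6, 1 and 18 (log2 fold change −1.86, adjusted P = 0.270). This fold change was −1.01 without Cpt1bcKO sample 2 and −2.64 without Cpt1bcKO sample 3.

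In the other roles no gene passed after adjustment in the comparison without covariates. Among 7 protein kinase A subunits and inhibitors, 3 were lower and 1 was higher at an unadjusted P value below 0.05. The inhibitor gene *Pkia* had 1433, 1268 and 1445 normalized counts in CtrlCre and 1064, 666 and 628 in Cpt1bcKO samples (log2 fold change −0.85, adjusted P = 0.0669), and *Pkig* had 344, 132 and 439 against 100, 106 and 170 (log2 fold change −1.15, adjusted P = 0.210). Among 6 other cardiac receptors, 2 were lower and 2 higher at this threshold. The angiotensin receptor gene *Agtr1a* had 190, 87 and 169 against 107, 49 and 52 (log2 fold change −1.11, adjusted P = 0.191). The endothelin receptor gene *Ednrb*, which endothelial cells also use, had 17, 66 and 63 against 124, 140 and 62 (log2 fold change 1.28, adjusted P = 0.269), and its log2 fold change was 0.66 without CtrlCre sample 1, the sample with the lowest sum of endothelial markers. Leaving out 1 sample brought *Pkia* (0.00337) and *Agtr1a* (0.0338) under 0.05 without Cpt1bcKO sample 1, and *Pkig* (0.0330) without CtrlCre sample 2. With sex as covariate, *Pkia* (0.00649) and *Agtr1a* (0.0262) passed.

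Further genes at an unadjusted P value below 0.05 were the anchoring protein genes *Akap12* (log2 fold change 0.55, adjusted P = 0.347) and *Akap13* (−0.44, adjusted P = 0.277), the protein kinase C gene *Prkcd* of the Gq arm (0.80, adjusted P = 0.169) and the CREB coactivator gene *Crtc1* (0.61, adjusted P = 0.342). The log2 fold change was 0.29 for *Akap12* without Cpt1bcKO sample 2 and −0.28 for *Akap13* without Cpt1bcKO sample 1. Among the 8 other Gα, 4 Gβ and 3 Gγ genes, 3 other cyclases, 6 receptor kinases and arrestins and 5 other cAMP-binding proteins, 0 had an unadjusted P value below 0.05.

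**Figure D4:**
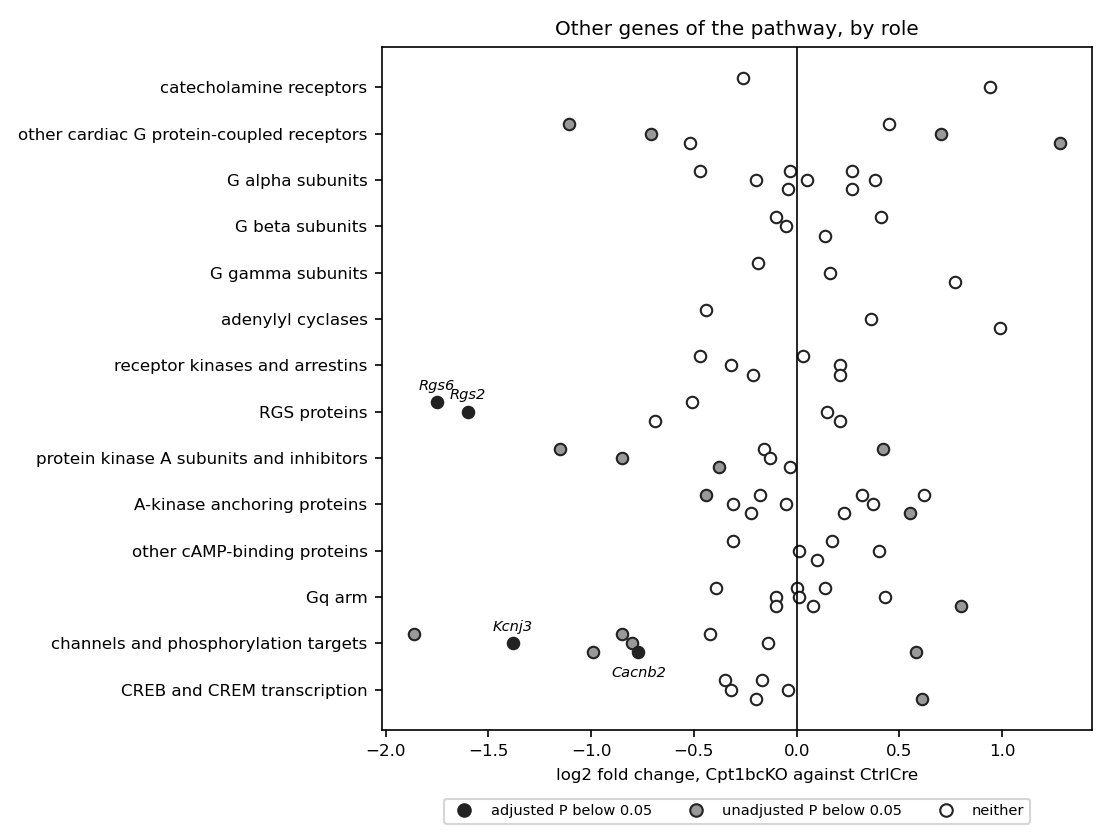
Log2 fold change of Cpt1bcKO against CtrlCre CMs (horizontal axis) for the 84 tested genes of the pathway other than the 9 described, with a row for each role. Black points are the 4 genes with an adjusted P value below 0.05 (*Rgs2*, *Rgs6*, *Kcnj3* and *Cacnb2*), grey points have an unadjusted P value below 0.05 only, and open points have neither.

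The genes whose levels over the 6 samples were most like those of *Chrm2*, *Gpr22* and *Gnb3* were sought among 6796 genes by Pearson's r of the log2 values. Since the groups differ, r here mostly follows the genotype and is given as a description. For *Chrm2* they were the cytoskeletal gene *Limch1* (r = 0.9977), *Mpped2* (0.9965) and the LIM protein gene *Fhl2* (0.9949). *Fhl2* had 3681, 3189 and 2895 normalized counts in CtrlCre and 1543, 1284 and 1504 in Cpt1bcKO samples. For *Gpr22* they were the chloride channel protein gene *Clic4* (0.9953), the anthrax toxin receptor gene *Antxr2* (0.9947) and the growth hormone receptor gene *Ghr* (0.9930). For *Gnb3* they were *Dmxl2* (0.9958), the demethylase gene *Alkbh3* (0.9937) and *Pdss1* (0.9905), an enzyme of coenzyme Q synthesis. The genes like each of the 3 members differed less between the groups than the member itself. In the order given, their log2 fold changes were −0.80, −1.33 and −1.17 for *Chrm2* and −0.51, −0.86 and −0.80 for *Gpr22*. For *Gnb3* they were 1.12, 0.82 and 0.45.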

How the data were processed

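Per the labels and the study's methods, total RNA was converted to stranded libraries, reads were aligned to GRCm38 and counted on genes, and reads on several genes or regions were excluded. The submitters' processing notes name Trimmomatic 0.36, STAR 2.5.4b, featureCounts 1.6.0 and DESeq2 1.14.1. The annotation release and strand setting are not given in the sources used here. The deposited signal values are counts after division by the size factor of each library, which the authors rounded. Columns with the authors' means, fold changes and P values were not used. Coordinates are those of the deposited table.

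Raw counts could not be recovered for every sample, so no count model was fitted. The log2 of each value plus 1 was taken, genes with at least 10 in at least 3 samples were kept, and groups were compared with limma 3.58.1 in R 4.3.3 (lmFit and eBayes with a trend), adjusted by the Benjamini–Hochberg method over 11364 genes. The procedure was tested on simulated data, and the outcome is not given here. Shares and per-kb levels were computed in Python 3.11.15 with pandas 2.3.3 and numpy 2.4.6, from the union of exons in GENCODE vM21. The members, the pathway list and the marker lists were chosen with earlier results of these data known. Named genes were the 9 members, list genes with an adjusted P value below 0.05, up to 2 genes of each role with the largest log2 fold change at an unadjusted P value below 0.05, the paralogue with the highest level per kb in each family, the 3 genes most like *Chrm2*, *Gpr22* and *Gnb3* by Pearson's r with a mean of at least 50, overlapping and neighbouring genes, and *Cpt1b*. Other genes given with values (*Kcnj5*, *Adra1d*, *Adcy9*, *Gnai2*, *mt-Rnr2*, single marker genes and those of the closing section) were named after their values were seen. Alternatives were pseudocounts of 0.5 and 5, no filter, a mean of at least 50, 2 other scalings, the replicate number as a block, sex (read from sex-linked genes, 1 female and 2 males in each group) as covariate, 1 prior variance for all genes, the longest transcript as length, and leaving out each sample in turn. The result of 1 gene of the pathway list is not reported here.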

Additional observations from a re-analysis of the deposited data

How the results depend on the processing

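The log2 fold changes of the 9 members kept their sign in every alternative that could be fitted (15 each, 14 for *Adra1b*, whose mean is under 50). Scaling to the total without mitochondrial and rRNA genes shifted all genes, to a median of 0.11 on the log2 scale. For 46 other tested genes (29 by the rule for named genes, 17 named after their values were seen), of which 16 were called after adjustment, the call was gained in 16 cases and lost in 59 over these alternatives, and none of the 16 changed sign. Among the uncalled, *Gnb1* went from −0.10 to 0.01 with that scaling and *Myl4* from 0.35 to −0.34 without CtrlCre sample 1. With 1 prior variance, *Cpt1b* had an adjusted P value of 0.0563, *Col1a1* 0.0698 and *Abcc9* 0.109. The 1578 genes with an unadjusted P value below 0.05 became 1051 with a mean of at least 50, and 1007 (without Cpt1bcKO sample 2) to 2262 (without Cpt1bcKO sample 1) with 1 sample left out. The 178 genes after adjustment became 574 with sex as covariate and 41 with 1 prior variance, and 42 (without Cpt1bcKO sample 2) to 329 (without Cpt1bcKO sample 1) with 1 sample left out (86, 78 and 68 without CtrlCre samples 1, 2 and 3). For the pathway list, the 21 genes at an unadjusted P value below 0.05 became 15 to 26 with 1 sample left out. The 4 after adjustment became 2 with no filter, 2 with a mean of at least 50, 2 with the scaling to that total, 10 with sex as covariate, 1 with 1 prior variance, and 1 to 7 with 1 sample left out. The cause was not tested. With the longest transcript as length, shares in CtrlCre CMs were 48.2% for *Adcy6*, 25.2% for *Adcy5* and 59.0% for *Adra1a*, and the *Adra1a* share in Cpt1bcKO CMs was 46.8%. With 1 sample left out, the *Gnb3* share ranged from 6.86% to 7.92% in CtrlCre and from 31.8% to 36.4% in Cpt1bcKO CMs.

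Deviations from the group means correlated across genes by 0.376, 0.255 and 0.068 between samples of the same number. Between samples of different numbers the correlations ranged from −0.329 to 0.147. The labels do not say that the numbers pair the samples, so the main comparison was unpaired. Whether the samples are paired was not tested, and genes are not independent replicates. With the replicate number as a block, 603 genes were called after adjustment and 2362 at an unadjusted P value below 0.05, and in the pathway list 11 and 32, with, among others, *Pkia* (0.00814), *Agtr1a* (0.0157) and *Pkig* (0.0231) gained after adjustment. *Kcnj5* (0.0150) and, outside the list, *Tbx5* (0.0399) were gained too. Values near 10 normalized counts, as for *Adra1b* and *Adra1d*, rest on few reads.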

Other observations

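Other genes with the symbols Gpr, Adgr, Lgr and Gprc5 were counted beside *Gpr22*, a choice made after the data were seen. They were taken by symbol alone, and not all of them encode receptors, since a pseudogene is among them. Of 49 such genes with values, 27 were tested, 15 higher and 12 lower by log2 fold change. An unadjusted P value below 0.05 was found for 7 (25.9%), 1 higher and 6 lower, and 1 (3.70%) passed after adjustment over all genes tested. Over all genes tested the shares were 13.9% (6.66% higher, 7.22% lower) and 1.57%. The median log2 fold change was 0.04. *Lgr6*, a receptor of R-spondins, had 344, 205 and 234 normalized counts in CtrlCre and 80, 84 and 150 in Cpt1bcKO samples (log2 fold change −1.34, adjusted P = 0.0429, limma), with adjusted P values between 0.0143 and 0.217 when each sample was left out, passing in 1 of 6 such fits. It also missed the threshold with no filter (0.0533), scaled to the total without mitochondrial and rRNA genes (0.0520) and with 1 prior variance (0.153). The others that were lower at an unadjusted P value below 0.05 were *Gpr27* (−0.73), *Adgrl1* (−0.67), *Adgre5* (−0.61), *Gpr155* (−0.57) and the latrophilin gene *Adgrl2* (−0.53), with adjusted P values from 0.192 to 0.308. The gene that was higher was the pseudogene *Gpr137b-ps* (log2 fold change 1.34, adjusted P = 0.214).

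*Dbh*, the enzyme that makes noradrenaline in sympathetic neurons, was below the minimum for the test. It was listed at 19, 5 and 5 normalized counts in CtrlCre and 2, 1 and 1 in Cpt1bcKO samples.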
